A study of Mus musculus with 15 samples.

Results

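The genes described here are 8 RNA sensors of the innate response and the adaptors and effectors that act with them, namely Ddx58, Ifih1, Dhx58, Mavs, Tlr3, Ticam1, Eif2ak2 and Adar. They were listed by name, without a threshold on their values, and each was found once by its symbol among the 34432 genes of both expression tables. The study asked how the arginine methyltransferase PRMT1 affects the antitumor interferon response, and measured mRNA in CT26, a mouse colon carcinoma cell line, in 2 experiments with 15 libraries. In the knockdown experiment, 3 libraries carried a control hairpin (shControl) and 3 a hairpin against Prmt1 (shPrmt1) that was switched on with doxycycline for 3 days; whether shControl cells also received doxycycline is not given in the sources used here. In the inhibitor experiment, wild-type CT26 cells were kept for 48 h with vehicle, with 6 µM MS023 or with 6 µM GSK3368715, with 3 libraries each. Both compounds inhibit type I arginine methyltransferases, the class to which PRMT1 belongs, and so do not act on PRMT1 alone. The hairpin lines were stable lines made with an inducible lentiviral vector. The labels do not say whether replicates were separate cultures, so p-values measure the spread between these samples, which may be technical.

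RIG-I (Ddx58) and MDA5 (Ifih1) are cytosolic helicases that bind double-stranded RNA and signal through MAVS, an adaptor on mitochondria. LGP2 (Dhx58) belongs to the same family but lacks the signalling domains and tunes the others. TLR3 recognizes double-stranded RNA in endosomes and signals through TRIF (Ticam1), and both adaptors lead to the kinase TBK1, the factor IRF3 and interferon-β. PKR (Eif2ak2) is a kinase that, once bound to double-stranded RNA, phosphorylates eIF2α and halts translation, and ADAR1 (Adar) edits adenosine to inosine in double-stranded RNA, which keeps the cell's own RNA from being sensed by MDA5. Several of these genes are known to be induced by interferon through transcription factors that bind the interferon-stimulated response element (ISRE) in promoters.

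Because those factors read short promoter motifs, the RefSeq promoters of the members were searched. A promoter here is the stretch from 250 bases before to 50 bases after a gene's start in GRCm38.p6, and 7 of the 8 members had an entry, Dhx58 being the exception. A pair of GAAA separated by 2 bases of any kind (or, in reverse, a pair of TTTC) stood for the ISRE, was searched on both strands and was present in the promoters of 3 members, Ddx58, Ifih1 and Eif2ak2, and in those of 1079 of 27025 genes (3.99%). The matches are shown for the members that hold these letters. In the changes given below, the 3 members with a match were called higher in all 3 comparisons with controls, and so was Tlr3, without a match. Of the other members searched, Adar was called higher in the knockdown only, Mavs fell and Ticam1 was not called. Whether the motif bears on these changes was not tested. Each run is printed on the gene's own strand with the motif in capitals:
Ddx58: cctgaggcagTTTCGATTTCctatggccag
Ifih1: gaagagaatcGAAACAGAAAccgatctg
Eif2ak2: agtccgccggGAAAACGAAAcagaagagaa
The Ddx58 run lies at chr4:40239804-40239833, the Ifih1 run at chr2:62646206-62646233 and the Eif2ak2 run at chr17:78882535-78882564, all for genes on the minus strand. Counted from the start as base 1, the motif covers bases 3 to 12 of Ddx58, where it reads in reverse, bases 33 to 42 of Ifih1 and bases 19 to 28 of Eif2ak2. TTC and GAA separated by 3 bases of any kind are letters of the gamma-activated site (GAS). They were found for 2 members, Eif2ak2 and the last of 3 listed starts of Adar, and for 2582 of 27025 genes (9.55%). The Eif2ak2 and Adar matches did not overlap an ISRE match. In Adar the GAS letters run into a pair of GAAA with 1 base between, which the ISRE letters searched here do not cover. Mavs, Tlr3 and Ticam1 held neither set of letters in these windows, and the window of Tlr3 begins at a start 700 bases inside the outermost start of the GENCODE M21 gene model.

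In mm10 coordinates the genes lie apart. Ddx58 is on chromosome 4 (40203773 to 40239828, minus strand), Ifih1 on chromosome 2 (62595798 to 62646255, minus), Dhx58 on chromosome 11 (100694884 to 100704271, minus) and Mavs on chromosome 2 (131234063 to 131248025, plus). Tlr3 is on chromosome 8 (45395665 to 45411080, minus), Ticam1 and Eif2ak2 are on chromosome 17 (56269319 to 56276786 and 78852564 to 78882573, both minus), and Adar is on chromosome 3 (89715022 to 89753446, plus). The exons of 4 members overlap a gene on the other strand, and use of strand in the counting is not given in the sources used here. Of those partners, only Chrnb2, which shares 1365 exonic bases with Adar, is listed in the tables, at a mean of 1.02 to 16.8 normalized counts per group against 1683 to 11848 for Adar. Values are per gene, so the interferon-induced long form of ADAR1 and its constitutive short form cannot be told apart.

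Reads on genes ranged from 17284091 to 29233738 per library in the knockdown experiment and from 40119305 to 93697833 in the inhibitor experiment. Prmt1 itself stood at 12.47% of shControl in shPrmt1 (704 ± 49.8 against 5646 ± 62.2 normalized counts, SD, n = 3 per group) and was not called with MS023 (-0.07) or GSK3368715 (-0.01). The defining epithelial gene Epcam had 0 reads in all 15 libraries and Cdh1 0 to 5 reads per group, while Krt18 reached 15.7 to 27.0 RPM (reads on the gene relative to all reads on genes) per group. Markers of leukocytes summed to 1.28 to 4.74 and of endothelium to 0.116 to 0.644 RPM per library. Most of the leukocyte sum was Cd68 (group means of 1.73 to 4.13 RPM), and Ptprc had 0 to 10 reads per group. A fibroblast list led by Col1a2 summed to 1474 to 2435 RPM per library, and its genes did not move together. Col1a1 had 2116 ± 239 normalized counts in shControl and 4207 ± 994 in shPrmt1. It had 18543 ± 518 in vehicle, 13071 ± 1955 with MS023 and 17227 ± 1203 with GSK3368715. In the knockdown, mean counts of Col3a1 (110 to 212) and Pdgfrb (242 to 391) were also higher. Those of Col1a2 (33525 to 31151) and Pdgfra (268 to 186) were lower. With MS023, means of Col1a2 (121881 to 104658) and Col3a1 (1181 to 1081) were lower, like that of Col1a1. Those of Pdgfra (826 to 1091), Pdgfrb (1876 to 2471) and Dcn (23.5 to 35.1) were higher. The part of these differences in any result was not tested. In these bulk samples, a change in the share of cells that express a gene and a change in RNA per cell cannot be told apart.

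In vehicle-treated cells, the order of the 8 levels, in RPM per kb of exon, ran from Eif2ak2 (67.5) through Ddx58 (52.4), Adar (28.5), Mavs (24.2), Ifih1 (19.7), Tlr3 (14.5) and Dhx58 (13.7) to Ticam1 (4.90). Only Tlr3 and Dhx58 overlapped among neighbours in that order. In shControl cells the order was Eif2ak2 (31.6), Mavs (25.5), Adar (13.3), Ddx58 (11.8), Ticam1 (4.20), Ifih1 (3.79), Tlr3 (3.23) and Dhx58 (1.42), with overlap between Ticam1 and Ifih1 and between Ifih1 and Tlr3. The adaptors were thus at like levels in both control groups, with vehicle at 0.95 times shControl for Mavs and 1.17 times for Ticam1 in RPM. The other 6 genes stood higher in vehicle, from 2.14 times for Eif2ak2 and 2.15 for Adar through 4.46 for Ddx58, 4.48 for Tlr3 and 5.21 for Ifih1 to 9.66 for Dhx58. These control groups come from separate experiments whose tables were normalized separately, so no test was made and line, medium and library preparation cannot be told apart. Mavs stood lower in the order with each treatment, and its libraries overlapped those of Ddx58 in shPrmt1, those of Tlr3 with both compounds and those of Dhx58 with GSK3368715.

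**Figure D1:**
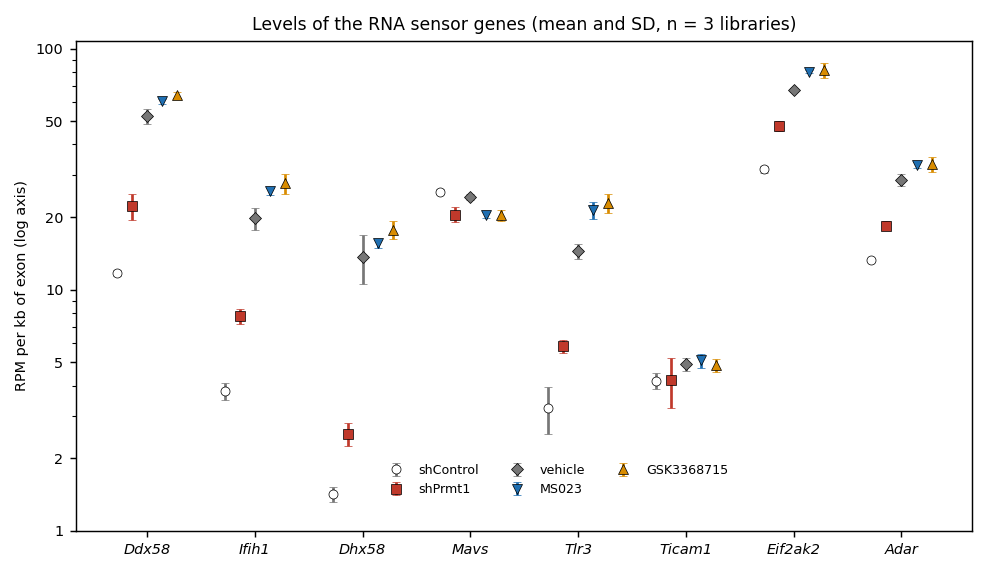
Level of each gene in RPM per kb of exon (log axis), as the mean and SD of 3 libraries for each of the 5 groups. Mavs and Ticam1 lie at similar heights in both experiments, whereas the other 6 genes lie higher in the inhibitor experiment (filled diamonds for vehicle) than in shControl (open circles).

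The first comparison asked how the sensors differed after Prmt1 knockdown. Of the 8 genes, 6 rose, Mavs fell and Ticam1 was not called (limma, Benjamini-Hochberg adjusted p under 0.05). Among the 11485 genes tested, 14.7% were called, 7.5% higher and 7.17% lower. The median log2 fold change of the 8 genes was 0.68, beside 0.00 over all genes tested. The receptors changed most, by 0.79 to 1.00 on the log2 scale, then PKR and ADAR1 by 0.56 and 0.44. Libraries of shPrmt1 lay outside the range of shControl for all 7 called genes, as they did for 38% of all genes tested (19.2% above, 18.9% below).

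Among the cytosolic receptors, Ifih1 had 409, 472 and 433 normalized counts in shControl and 861, 956 and 818 in shPrmt1. The lowest shPrmt1 library was 1.73 times the highest control. Its level was 2.00 times that of shControl (log2 1.00 ± 0.09 SE, adjusted p = 4.24e-04 by limma), the largest change among the 8 genes. Ddx58 had 970.2, 932 and 987 normalized counts in shControl and 1551, 2030.3 and 1767 in shPrmt1. The groups did not overlap, and shPrmt1 libraries differed more among themselves (SD 239.9) than controls did (SD 28.5). Ddx58 rose 1.85-fold (log2 0.88 ± 0.10, adjusted p = 0.0011). Dhx58 was the least abundant, with 74.8, 66.2 and 76.3 normalized counts in shControl against 109.7, 138 and 131 in shPrmt1. These values rest on 69 to 92 reads per control library and 96 to 128 per shPrmt1 library. Again every shPrmt1 library lay above every control, and Dhx58 rose 1.74-fold (log2 0.79 ± 0.15, adjusted p = 0.0109).

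Mavs, the adaptor these receptors share, went the other way. It had 1666, 1629 and 1718 normalized counts in shControl and 1403, 1248 and 1281 in shPrmt1. All 3 shPrmt1 libraries lay below the lowest control, and Mavs fell to 78.5% of shControl (log2 -0.35 ± 0.07, adjusted p = 0.0137). This call did not hold without shControl replicate 1 (-0.35, adjusted p = 0.0679), shControl replicate 3 (-0.33, adjusted p = 0.0747) or shPrmt1 replicate 3 (-0.34, adjusted p = 0.0503), each by limma.

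For the endosomal route, Tlr3 had 240.4, 309 and 370.4 normalized counts in shControl and 517, 529.7 and 577 in shPrmt1. Controls spread widely but stayed below all shPrmt1 libraries, and Tlr3 rose 1.77-fold (log2 0.84 ± 0.15, adjusted p = 0.00874). Its adaptor Ticam1 had 256, 252 and 289 normalized counts in shControl and 299.5, 193 and 291 in shPrmt1. The groups overlapped because shPrmt1 replicate 2 was the lowest of the 6 libraries and its fellow shPrmt1 replicates the highest. The difference was -0.05 with a 95% interval from -0.44 to 0.34 (adjusted p = 0.866 by limma), so a change within that interval was not excluded. Without shPrmt1 replicate 2 it was 0.15 and without shControl replicate 3 it was 0.01.

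The effectors moved with the receptors, by less. Eif2ak2 had 2826, 2845 and 2970 normalized counts in shControl and 4007, 4491 and 4292 in shPrmt1. Within each group its libraries were close, the groups did not overlap, and the gene rose 1.48-fold (log2 0.56 ± 0.06, adjusted p = 0.00111). Adar had 1712, 1652 and 1686 normalized counts in shControl and 2321, 2198 and 2330.3 in shPrmt1. It rose 1.36-fold (log2 0.44 ± 0.06, adjusted p = 0.00272), again with no overlap.

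**Figure D2:**
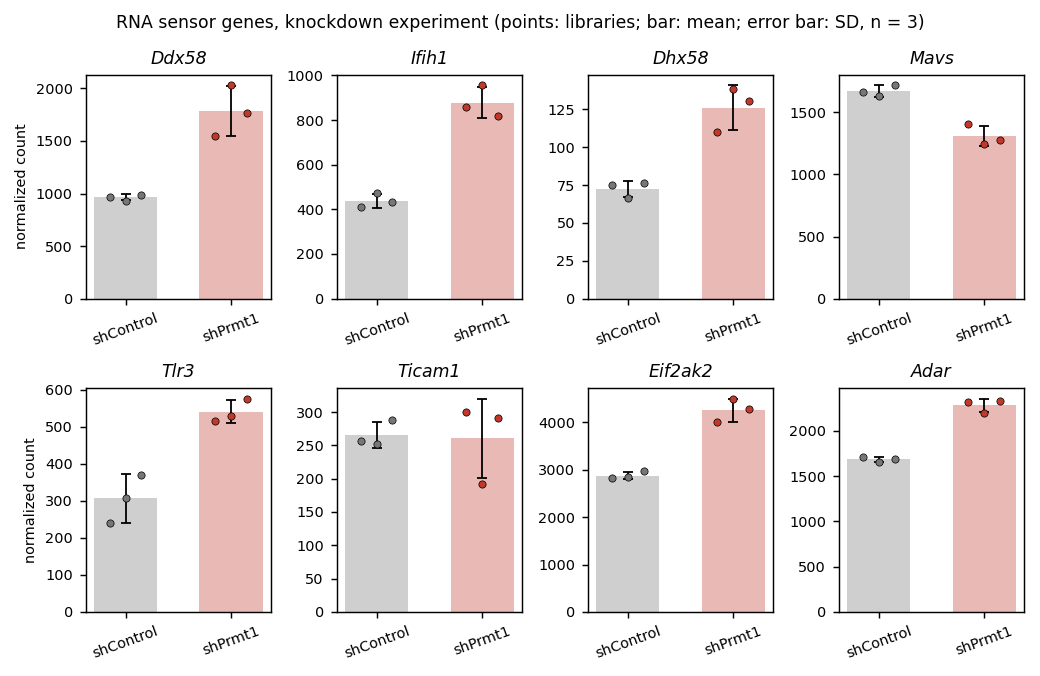
Normalized counts of the 8 genes in the knockdown experiment, with 1 panel per gene, a point per library, a bar at the mean and an error bar of 1 SD (n = 3 per group; axes start at 0). Points of shPrmt1 lie above all shControl points for 6 genes, below them for Mavs and on both sides of them for Ticam1.

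The second experiment asked the same of cells treated with the inhibitors. With MS023, 4 members rose (Ddx58, Ifih1, Tlr3 and Eif2ak2), Mavs fell, and Dhx58, Ticam1 and Adar were not called. GSK3368715 gave the same 4 genes higher, the same 1 lower and the same 3 not called; both comparisons use the same vehicle libraries, and all 9 libraries entered 1 fit. Of 13014 genes tested, 27.9% were called with MS023 (13.7% higher, 14.1% lower) and 9.64% with GSK3368715 (5.16% higher, 4.47% lower). The median log2 fold change of the 8 genes was 0.17 with MS023 and 0.27 with GSK3368715, beside 0.00 over all genes in each comparison. Treated libraries lay outside the vehicle range for 6 of the 8 genes with either compound, the 5 called genes and Adar, as they did for 44.5% of all genes with MS023 (22.4% above, 22.1% below) and 27.7% with GSK3368715 (13.7% above, 14.1% below).

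The largest change among the members was that of Tlr3. It had 4084, 3611 and 3998 normalized counts in vehicle, 5501, 6146 and 5264 with MS023 and 5941, 6678 and 5659 with GSK3368715. Every treated library was at least 1.29 times the highest vehicle library. Tlr3 rose 1.45-fold with MS023 (log2 0.53 ± 0.08, adjusted p = 9.95e-04) and 1.56-fold with GSK3368715 (log2 0.64 ± 0.08, adjusted p = 0.00141). Ticam1 stayed between 818 and 957 normalized counts in all 9 libraries. Its difference was 0.02 with MS023 (95% interval -0.16 to 0.20) and -0.03 with GSK3368715 (-0.21 to 0.15), a narrower interval than in the knockdown.

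Ifih1 had 7107, 5815 and 6511 normalized counts in vehicle, 8407, 7920 and 8292 with MS023 and 8317, 9971 and 8658 with GSK3368715. No treated library fell within the vehicle range, and GSK3368715 replicate 2 was the highest of all. Ifih1 rose 1.27-fold with MS023 (log2 0.35 ± 0.08, adjusted p = 0.0112) and 1.39-fold with GSK3368715 (log2 0.47 ± 0.08, adjusted p = 0.007). Ddx58 had 12538, 11258 and 12765 normalized counts in vehicle, 13466.5, 13589.9 and 14066 with MS023 and 14697, 15140.5 and 14448 with GSK3368715. Its 3 groups lay one above another without overlap, with vehicle lowest. The rise was 1.21-fold with GSK3368715 (log2 0.28 ± 0.06, adjusted p = 0.0128) and 1.13-fold with MS023 (log2 0.17 ± 0.06, adjusted p = 0.0415). The MS023 call for Ddx58 did not hold in 10 of 20 alternatives, among them the fit without vehicle replicate 2, the lowest vehicle library (log2 0.12, adjusted p = 0.112), and it ranged from adjusted p = 0.021 to 0.132 over all of them.

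Dhx58 had 2410.0, 1541 and 2002 normalized counts in vehicle, 2144, 2147 and 2315 with MS023 and 2529, 2767 and 2329 with GSK3368715. Vehicle libraries spread over a wider range than either treated group, and vehicle replicate 1 lay above all MS023 libraries. Dhx58 was not called with MS023 (log2 0.17, 95% interval -0.12 to 0.47, adjusted p = 0.368) or with GSK3368715 (0.38, 0.08 to 0.67, adjusted p = 0.102). Without vehicle replicate 1 the GSK3368715 difference was 0.53 (adjusted p = 0.016 by limma).

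Mavs had 4530.4, 4416 and 4567 normalized counts in vehicle, 3742, 3569 and 3843 with MS023 and 3811, 3525 and 3917 with GSK3368715. All 6 treated libraries lay below all vehicle libraries, which differed by little among themselves. Mavs fell to 82.5% of vehicle with MS023 (log2 -0.28 ± 0.06, adjusted p = 0.00457) and to 83.3% with GSK3368715 (log2 -0.27 ± 0.06, adjusted p = 0.0157). The GSK3368715 call did not hold without vehicle replicate 3 (-0.26, adjusted p = 0.06 by limma).

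Eif2ak2, the most abundant of the 8 transcripts, had 17156, 17437 and 17844 normalized counts in vehicle, 20338, 19878 and 20553 with MS023 and 22099, 19257 and 21308 with GSK3368715. Treated libraries lay above vehicle throughout, and those of GSK3368715 spread most. It rose 1.16-fold with MS023 (log2 0.21 ± 0.06, adjusted p = 0.017) and 1.20-fold with GSK3368715 (log2 0.25 ± 0.06, adjusted p = 0.0185). By limma, the MS023 call did not hold without MS023 replicate 1 (0.21, adjusted p = 0.051) or 3 (0.20, adjusted p = 0.0611), and the GSK3368715 call did not hold without vehicle replicate 3 (0.27, adjusted p = 0.05), without GSK3368715 replicate 1 (0.21, adjusted p = 0.0648) or 3 (0.24, adjusted p = 0.0622), or with only the groups compared in the fit (0.25, adjusted p = 0.0617).

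Adar had 10689.9, 9736 and 10404 normalized counts in vehicle, 11268, 11403.5 and 11909 with MS023 and 12765, 11335 and 11445 with GSK3368715. All treated libraries lay above all vehicle libraries, yet Adar missed the threshold with both compounds (log2 0.17 ± 0.06, adjusted p = 0.0603 with MS023, and 0.20 ± 0.06, adjusted p = 0.0568 with GSK3368715). DESeq2 on the recovered reads called it in both comparisons (0.17, adjusted p = 0.0422, and 0.21, adjusted p = 0.0193). With MS023, limma also called it with libraries set to equal upper quartiles (0.19, adjusted p = 0.0481) or totals (0.20, adjusted p = 0.0343), without vehicle replicate 1 (0.20, adjusted p = 0.0489) and without GSK3368715 replicate 1 (0.17, adjusted p = 0.0411).

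**Figure D3:**
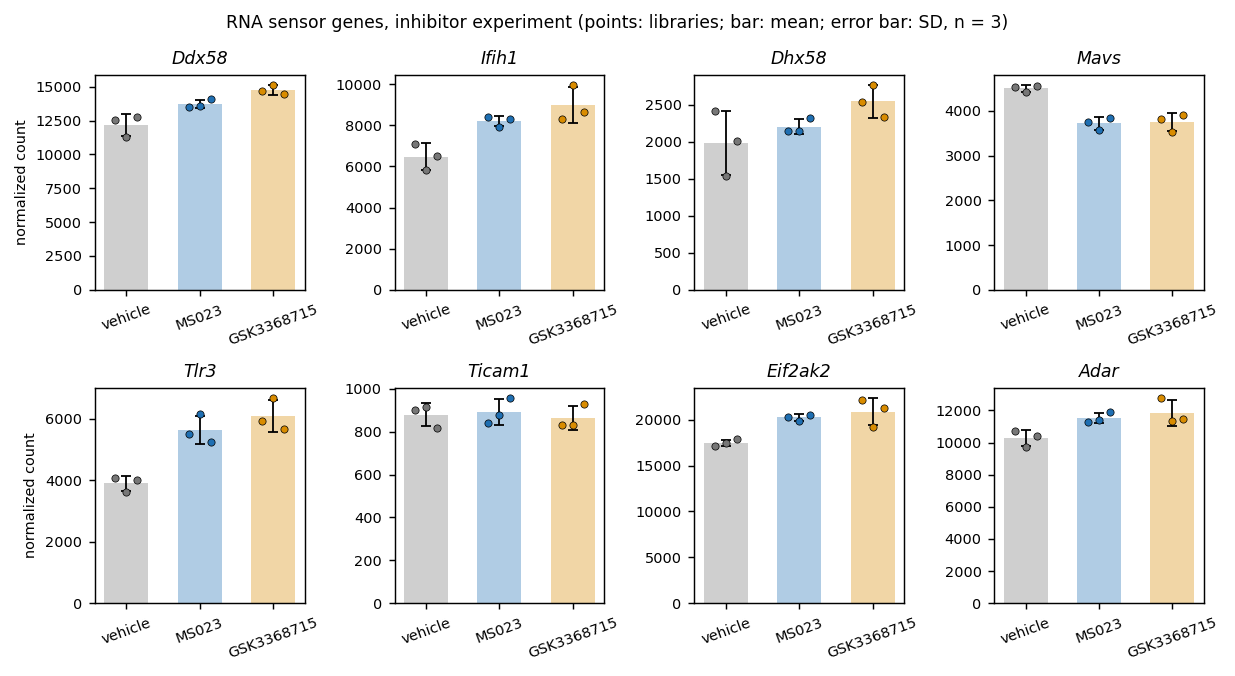
Normalized counts of the 8 genes in the inhibitor experiment, with a point per library, a bar at the mean and an error bar of 1 SD (n = 3 per group; axes start at 0). Both treated groups lie below vehicle for Mavs and above it for Ddx58, Ifih1, Tlr3, Eif2ak2 and Adar, and the groups overlap for Ticam1 and, with vehicle spread widely, for Dhx58.

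The compounds were compared with each other at the same dose and time in 8 tests, 1 per member, within the adjustment over all 13014 genes. None of the 8 was called by limma, edgeR or DESeq2, and none had an unadjusted p under 0.05 by limma; 0.515% of all genes were called (0.2% higher and 0.315% lower with MS023). The difference, MS023 minus GSK3368715, was -0.11 for Ddx58 (95% interval -0.23 to 0.02), -0.13 for Ifih1 (-0.31 to 0.06), -0.20 for Dhx58 (-0.50 to 0.09) and -0.11 for Tlr3 (-0.29 to 0.07). It was -0.01 for Mavs (-0.14 to 0.11), 0.05 for Ticam1 (-0.13 to 0.23), -0.04 for Eif2ak2 (-0.17 to 0.08) and -0.04 for Adar (-0.17 to 0.09). Libraries did not overlap for Ddx58 and Dhx58, both lower with MS023, as for 11.4% of all genes, with 9.95% higher and 21.4% in either direction. Adjusted p ranged from 0.453 to 0.946, and the intervals leave room for a lower level of the receptors with MS023, up to 0.50 on the log2 scale for Dhx58.

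**Figure D4:**
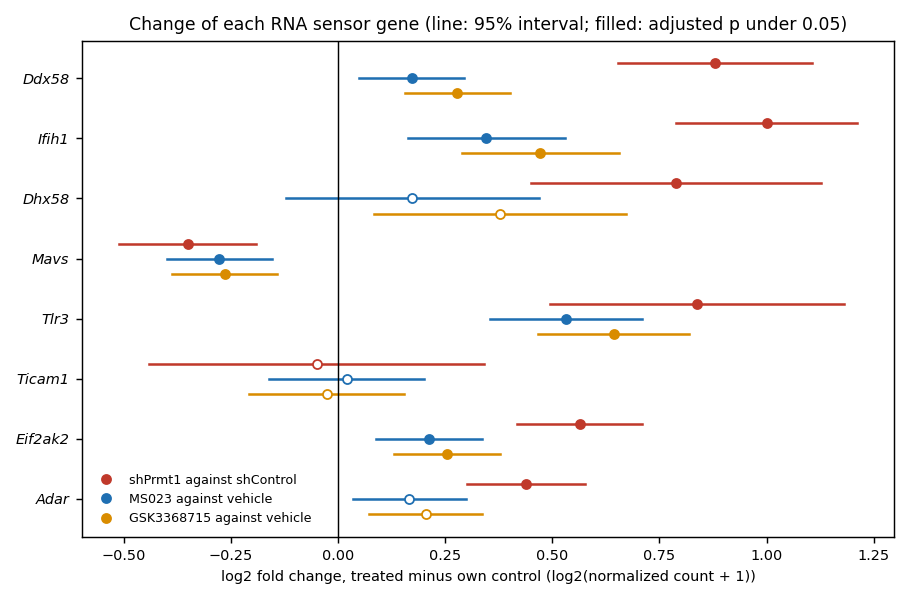
Log2 fold change of each gene against its own control, on the log2(normalized count + 1) scale, with the 95% interval from limma for the knockdown (red), MS023 (blue) and GSK3368715 (orange); filled points have an adjusted p under 0.05. Mavs lies left of 0 in all 3 comparisons (-0.35, -0.28 and -0.27), Ticam1 straddles 0, and the other 6 genes lie right of 0 with the knockdown farthest out. For these 6 genes, vehicle levels were 2.14 to 9.66 times those of shControl in RPM. The difference in change between the experiments was not tested.

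Since the receptors and Mavs moved apart, reads of each receptor were also counted per 100 reads of its adaptor in each library, a measure that needs no scaling between libraries. It was chosen after the values above were seen, restates how those genes moved apart, and is given without a test. Ddx58 had 57.6 ± 0.541 reads per 100 Mavs reads in shControl (SD, n = 3) and 137 ± 26.0 in shPrmt1, and 270.4 ± 13.5 in vehicle, 369 ± 10.7 with MS023 and 395 ± 31.3 with GSK3368715. For Ifih1 the ratio went from 26.3 ± 2.39 to 67.3 ± 8.18 in the knockdown, and from 144 ± 12.6 to 221 ± 4.55 with MS023 and 241 ± 36.5 with GSK3368715. Dhx58 went from 4.33 ± 0.232 to 9.70 ± 1.68, and from 44.0 ± 9.15 to 59.2 ± 1.67 and 68.1 ± 9.64. Tlr3 had 115 ± 18.5 reads per 100 Ticam1 reads in shControl and 215 ± 53.2 in shPrmt1, and 445 ± 48.2 in vehicle, 635 ± 76.8 with MS023 and 709 ± 96.8 with GSK3368715. Mean ratios were 1.35 to 2.56 times those of the control, and treated and control libraries did not overlap. For Dhx58 with the inhibitors, whose own normalized counts overlapped vehicle and were not called, the ratio also carries the fall of Mavs.

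ADAR1 and MDA5 act against each other on the cell's own RNA, and their transcripts were set side by side in the same way. Like the ratios above, this one restates changes already given, and it is given without a test. Adar had 386 ± 34.2 reads per 100 Ifih1 reads in shControl and 261.5 ± 28.5 in shPrmt1, 0.678 times as many and without overlap. Adar itself was higher there (1.36-fold), and Ifih1 by more (2.00-fold). With MS023 and GSK3368715, Adar stood at 1.12 and 1.15 times vehicle, not called, and Ifih1 at 1.27 and 1.39 times. With MS023 the ratio was 140.5 ± 5.64 against 159 ± 8.51 in vehicle, also without overlap, and with GSK3368715 it was 133 ± 19.9, which overlapped vehicle. Adar reads per 100 Eif2ak2 reads overlapped between treated and control in every comparison and stayed between 53.7 and 58.8 on average.

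**Figure D5:**
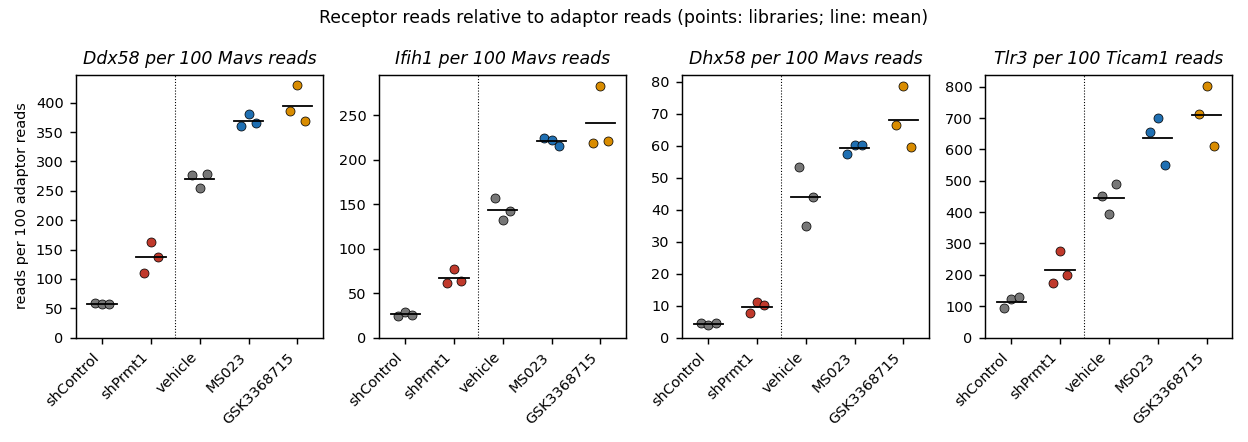
Reads of each receptor per 100 reads of its adaptor (Mavs or Ticam1), with a point per library and a line at the mean of each group (n = 3; the dotted line parts the experiments; axes start at 0). Treated libraries lie above all libraries of their own control in every panel.

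To place the members among other genes, the log2 differences of the 9 treated libraries from their own control mean were compared over 11470 genes by the root mean square (RMS) difference. This is a description, and libraries that share a control share its error. Nearest to Ddx58 were Mndal (0.07), Rtp4 (0.08) and Ifi203 (0.08), with Dhx58 next at 0.09, and nearest to Dhx58 were Ddx58 (0.09), Mndal (0.10) and Rtp4 (0.12). Among the genes close to Ifih1 were Nmi (0.10) and Sp100 (0.11), while Tlr3 was closest to Cd274, which encodes PD-L1 (0.12), Oas1a (0.13) and Sp140 (0.13). Eif2ak2 lay near Rgmb (0.06), Trim44 (0.06) and Pros1 (0.07), and Adar near Tfcp2 (0.06), Sh3bp5 (0.07) and Helz2 (0.07), and they were 0.11 apart. Mavs lay near Mon1b (0.06), Lrrc47 (0.06) and Sh3bgrl3 (0.07), and Ticam1 near Col4a2 (0.03), Tmsb10 (0.05) and Sphk2 (0.06). Mavs was 0.59 or farther from every member but Ticam1, from which it was 0.32.

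The surrounding pathway was covered by 6 lists with 74 genes. Of those tested, 8 of 67 were higher and 0 lower in the knockdown by limma, 11 of 68 higher and 7 lower with MS023, and 5 higher and 2 lower with GSK3368715. At an unadjusted p under 0.05, 3 genes were lower in the knockdown, and edgeR called 0 and DESeq2 1 lower. Counted in either direction, these shares lie near those of all genes tested (14.7%, 27.9% and 9.64% called). By direction, all genes gave 7.5% higher and 7.17% lower in the knockdown, where the lists gave 8 genes and 0. The shares of all genes were 13.7% higher and 14.1% lower with MS023, and 5.16% and 4.47% with GSK3368715.

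Interferon receptor subunits, their kinases and the factor ISGF3 gave 4 higher of 7 in the knockdown, 3 with MS023 and 2 with GSK3368715. In the same order, 7.5%, 13.7% and 5.16% of all genes tested were higher. None of the 7 was lower, also at an unadjusted p under 0.05 and by edgeR or DESeq2. Of all genes, 7.17%, 14.1% and 4.47% were lower, and with 7 genes at such shares an absence of lower calls says little. Stat2, a signal carrier, rose in all 3 comparisons, by 0.60 (adjusted p = 0.00342), 0.66 (3.70e-04) and 0.59 (0.00294) on the log2 scale. Irf9, a subunit of ISGF3, rose by 0.64 in the knockdown (adjusted p = 9.55e-04) and stood at 0.27 (0.0606) and 0.26 (0.107) with MS023 and GSK3368715. Tyk2, a receptor kinase, was called with MS023 only (0.28, adjusted p = 0.00791), with -0.02 in the knockdown and 0.18 with GSK3368715; the difference between the compounds was not called, and that from the knockdown was not tested.

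Downstream of both adaptors, Irf7, a factor that interferon induces, rose by 1.80, 0.93 and 0.68 (adjusted p = 5.07e-05, 0.00113 and 0.0166). Tbk1 (0.11, 0.10 and -0.06) and Irf3 (-0.16, 0.08 and 0.11) were not called in any comparison. Ifnb1, which encodes interferon-β, was too low to test in the knockdown (means of 0.369 and 1.13 normalized counts) and was not called with the inhibitors (0.59 and 0.80; 9.23 normalized counts in vehicle, 14.3 and 17.6 treated). Tank, a TBK1 partner, rose in the knockdown (0.39, adjusted p = 0.0138) and stood at -0.05 and -0.00 with the inhibitors. With MS023, Ikbkg, a subunit of the IκB kinase complex, fell (-0.25, adjusted p = 0.0082) and Tradd, an adaptor, rose (0.32, adjusted p = 0.0293); neither was called with GSK3368715 (-0.17 and 0.15) or in the knockdown (-0.07 and 0.22). In all, 2 of 18 genes of this list were higher in the knockdown, 2 of 19 higher and 1 lower with MS023, and 1 higher with GSK3368715. Beside them, all genes tested gave 7.5% higher in the knockdown, 13.7% higher and 14.1% lower with MS023, and 5.16% higher with GSK3368715.

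Regulators of the RIG-I-like receptors gave 1 higher of 11 in the knockdown, 1 higher and 4 lower with MS023, and 1 higher and 2 lower with GSK3368715. Shares of all genes were 7.5% higher in the knockdown, 13.7% higher and 14.1% lower with MS023, and 5.16% higher and 4.47% lower with GSK3368715. Trim25, a ubiquitin ligase that activates RIG-I, was the one higher each time (0.47, 0.37 and 0.38; adjusted p = 0.00146, 2.46e-04 and 9.33e-04). Nlrx1, a mitochondrial protein known to restrain MAVS, had 653 normalized counts in vehicle and fell to 264 with MS023 (log2 -1.31, adjusted p = 1.52e-04) and 452 with GSK3368715 (-0.52, adjusted p = 0.0418), with -0.33 in the knockdown (adjusted p = 0.498). Tkfc, which encodes an inhibitor of MDA5, fell with MS023 (-0.44, adjusted p = 0.00123) and GSK3368715 (-0.27, adjusted p = 0.0355) and stood at -0.08 in the knockdown. Cyld, a deubiquitinase acting on RIG-I, fell with MS023 (-0.21, adjusted p = 0.0216) and stood at -0.14 with GSK3368715 and 0.27 in the knockdown, not called in either.

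Among other proteins that bind or edit double-stranded RNA, 1 of 10 was higher in the knockdown, 2 higher and 1 lower with MS023, and 1 higher with GSK3368715. For all genes tested the shares were 7.5% higher in the knockdown, 13.7% higher and 14.1% lower with MS023, and 5.16% higher with GSK3368715. Zbp1, a sensor of Z-form nucleic acid that shares its Z-binding domain type with ADAR1, was the one higher each time (2.06, 1.15 and 1.06; adjusted p = 7.88e-04, 0.00218 and 0.0104). With MS023, Adarb1, the gene of the second editing enzyme ADAR2, rose (0.60, adjusted p = 0.00332) and Dicer1, a ribonuclease, fell (-0.33, adjusted p = 0.0466). Neither was called with GSK3368715 (0.21 and -0.13), in the knockdown (0.37 and -0.07) or between the compounds. With the replicate number as a block in the fit, Dicer1 was not called with MS023.

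In the list around PKR and the eIF2 stress response, 0 of 14 were called by limma in the knockdown and with GSK3368715, where 2 and 4 had an unadjusted p under 0.05, edgeR called 0 in each and DESeq2 1 and 2. With MS023, 4 of 14 were called, beside 27.9% of all genes. Of these, 3 rose, namely the eIF2 kinases Eif2ak3 (0.31, adjusted p = 0.0204) and Eif2ak1 (0.16, adjusted p = 0.0428) and the co-chaperone Dnajc3 (0.33, adjusted p = 0.0213). Asns, an ATF4 target, fell (-0.39, adjusted p = 0.00326). In that order, the 4 genes stood at 0.20, 0.17, 0.25 and -0.23 with GSK3368715, not called. They stood at -0.13, 0.10, 0.11 and -0.17 in the knockdown, also not called. None of the 4 was called between the compounds. Of 7 genes of TLR3 trafficking and the TRIF branch that were tested, 0 were called by limma, edgeR or DESeq2 in any comparison with control, and 1, 1 and 0 had an unadjusted p under 0.05 in the knockdown, with MS023 and with GSK3368715. Unc93b1, Ripk3 and Sarm1, also on this list, were under the filter and were not tested. Unc93b1 had 0 to 8 reads per group, and Sarm1 had 6 reads in vehicle, 47 with MS023 and 15 with GSK3368715.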

How the data were processed

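The authors quantified paired-end mRNA libraries with Salmon 1.4.0 on mm10 and deposited, as a signal per gene, the count after DESeq2's size factor scaling (here normalized counts); the import step and the DESeq2 version are not given in the sources used here. Such values are whole multiples of 1 read, and whole reads were recovered for 100% of values within 0.001. Deposited columns with the authors' own fold changes and p-values were not used. Groups came from GEO's labels. Genes with at least 10 normalized counts in 3 or more libraries were tested by limma 3.58.1 (R 4.3.3) with an intensity trend on log2(value + 1), 1 fit per experiment, with Benjamini-Hochberg adjustment and a threshold of 0.05. This scale understates changes of low genes. edgeR 4.0.16 and DESeq2 1.42.0 on recovered reads, another pseudocount, filter or scaling, a replicate block and leaving out libraries were alternatives. Members and lists were chosen with earlier results of these data known. Named genes were all members, their 3 nearest genes, Irf3, Tbk1, Ifnb1 and, per list, up to 4 called genes of smallest adjusted p; 1 gene that this rule names is not reported here. The code was tested on simulated data. Depth is given in the report. Replicates differed by more than sampling noise. No protein sequence was used.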

Additional observations from a re-analysis of the deposited data

Results flagged for a closer look

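Nlrx1 differed between the compounds: MS023 minus GSK3368715 was -0.79 ± 0.14 SE on the log2 scale (adjusted p = 0.0396 by limma, n = 3 per group). The call did not hold in 12 of 20 alternatives, including every fit without 1 MS023 or GSK3368715 library (-0.68 to -0.94, adjusted p = 0.0548 to 0.173), and adjusted p ranged from 7e-05 to 0.173 over all alternatives.

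Cyld libraries lay on opposite sides of their controls in the experiments. With MS023 all lay below vehicle (log2 -0.21, adjusted p = 0.0216 by limma, 6194 ± 146.9 against 7172 ± 300.4 normalized counts), and in the knockdown all shPrmt1 libraries lay above shControl (0.27, 2411 ± 358 against 1989 ± 142), a difference that was not called (adjusted p = 0.128 by limma) and a position that 19.2% of all genes shared. The difference between the experiments was not tested.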

How the results depend on the processing

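For the 8 members in 4 comparisons, 569 of 608 alternative values kept their direction and their side of the threshold, 20 lost the call, 7 gained it and 12 changed sign. The sign changes concern genes near 0. Leaving out 1 library moved the log2 fold change of Ticam1 between -0.16 and 0.15 in the knockdown, between -0.032 and 0.062 with MS023 and between -0.079 and 0.0053 with GSK3368715. Between the compounds it moved Ticam1 from -0.0057 to 0.099, Mavs from -0.056 to 0.020 and Adar from -0.069 to 0.017, and Mavs stood at 0.0079 with equal totals. The cause was not tested.

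A minimum log2 change of 1 in either direction, besides the adjusted p, left 1 member (Ifih1) in the knockdown and 0 with either compound, and left 2, 2, 1 and 0 of the other pathway genes in the 4 comparisons; fewer genes can pass by construction. Leaving out 1 library gave 6 to 7 called members in the knockdown, 3 to 6 with MS023 and 3 to 6 with GSK3368715, and 6 to 9, 11 to 20 and 4 to 11 of the other pathway genes. The 1 such gene called between the compounds, Nlrx1, became 0 without a filter, with equal upper quartiles or totals, without the trend and under the replicate block, and was 0 to 1 when a library was left out.

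The replicate numbers were not taken to pair the libraries, since not every same-numbered pair reached r of 0.1 (0.061, 0.116 and 0.081 in the knockdown, and -0.102 to 0.113 in the inhibitor experiment). In the knockdown each library still correlated best with its own number, with -0.094 to 0.033 for other pairs, which is a hint from the data and not the design. The replicate block raised the calls among all genes in the knockdown from 1684 to 2671 and among the other pathway genes from 8 to 14, lost Ddx58 with MS023 (adjusted p = 0.0652), gave 3 lower calls instead of 4 with MS023 and 0 instead of 2 (Nlrx1 and Tkfc) with GSK3368715 among regulators of the RIG-I-like receptors, and gave 4 calls instead of 67 among all genes between the compounds; it changed no other call of a member. Over all genes, equal totals moved the split of higher to lower calls from 861 and 823 to 1082 and 666 in the knockdown and from 1784 and 1841 to 2200 and 1509 with MS023. Fitting only the groups compared gave 597 instead of 1254 calls with GSK3368715, and 67 calls between the compounds became 377 by DESeq2, 38 without a filter and 8 without the trend. Leaving out 1 library gave 652 to 2472 calls in the knockdown, 2409 to 3726 with MS023, 586 to 1274 with GSK3368715 and 2 to 114 between the compounds. Depth was lowest for Dhx58 in the knockdown (69 to 128 reads per library) and for Ifnb1, which was under the filter there.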
